A study of Homo sapiens with 48 samples.

Results

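The comparison described here is the knockout of RUVBL2 in A382 cells, an established human glioblastoma line, against cells carrying the non-targeting guide RNA sgNeg3. Its members are the 2 libraries of RUVBL2 knockout, 1 for each of 2 guide RNAs, set against the 2 replicate libraries of sgNeg3, out of 48 libraries in the study. All 4 came from cells infected with a lentivirus carrying the guide RNA, collected at day 9, with RNA selected for poly(A) tails and sequenced as strand-specific libraries. The authors normalized these 4 libraries together with knockouts of RUVBL1, MORF4L1 and MORF4L2, which gave 10 libraries that share 1 scale. Each of those knockouts also has 2 libraries, 1 per guide RNA, collected at day 9. A pair of further contrasts is set beside this one: TIP60 knockout against the non-targeting guide sgNeg2 at day 9, and an inducible p53 vector against a control vector after 2 days of doxycycline. Cells were sequenced in bulk, so cells that a guide RNA left unedited remain in each knockout library. The 2 libraries of a knockout carry different guide RNAs and so came from separately infected cells, with no repeat of a guide. Nothing in the labels says that replicate libraries, such as the 2 of sgNeg3, came from separate cultures. The p-values therefore rest on differences between guides, pooled with differences between sgNeg3 libraries that may be technical repeats.

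RUVBL2 (reptin) is an ATPase of the AAA+ family that forms a ring with its partner RUVBL1 (pontin). The ring is a building block of 3 chromatin remodelling complexes, EP400/TIP60, INO80 and SRCAP, which slide nucleosomes or exchange histone H2A variants. Together with the HSP90 adaptors of the R2TP complex it also helps to assemble RNA polymerases, kinases of the PIKK family (such as mTOR and ATM) and the small nucleolar RNPs that guide ribosomal RNA modification.

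The targeted mRNA was lower in both knockout libraries. RUVBL2 stood at 94.8 and 111 FPKM in sgNeg3 and at 27.3 and 31.3 FPKM in RUVBL2 knockout, where FPKM is the number of fragments scaled by transcript length and library depth. Both knockout values lay below both control values, at 28.5% of the control mean, with a log2 fold change of -1.78 ± 0.216 (standard error, adjusted p = 0.000543 by limma). RUVBL1 mRNA stood at 61.5 and 62.6 FPKM in sgNeg3 and at 53.4 and 57 FPKM in RUVBL2 knockout, a difference of -0.17 ± 0.163 that did not pass (adjusted p = 0.471). In RUVBL1 knockout, RUVBL2 mRNA stood at 133 and 137 FPKM, above both control libraries (0.39 ± 0.216, adjusted p = 0.202). Here and below, fold changes are differences of log2(FPKM + 1), which understate the change of weakly expressed genes, and a gene is called higher or lower at an adjusted p under 0.05 over all tested genes.

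Of 11063 tested genes (FPKM of at least 1 in at least 2 of the 10 libraries), 3698 were called in RUVBL2 knockout, which is 33.4%. Of these, 1493 (13.5% of the tested genes) were higher and 2205 (19.9%) were lower. Higher genes made up 40.4% of the calls. That share became 46.8% when the libraries were rescaled by median ratios and 47.8% when they were rescaled by a trimmed mean. The excess of lower calls therefore depended in part on the scaling. A change of at least 2-fold was found in 205 of the higher and 541 of the lower genes. The median over all tested genes was -0.05, and the table lists 8039 further genes that were too low to test. With 1 of the 4 libraries left out the count was 1652 to 1848, and it rose to 6817 when the fit held these 4 libraries alone. An exact permutation test of 2 against 2 libraries cannot give a two-sided p below 0.333, so single genes were judged with the spread estimated over all 10 libraries.

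The 2 guides were compared gene by gene. With guide 1 set against sgNeg3 replicate 1 and guide 2 against replicate 2, so that no library was used more than once, 86.2% of all tested genes differed in the same direction in both pairs. Pearson's r between the pairs was 0.917 across 11063 genes, which are not independent replicates. All 3698 called genes differed in the same direction in both pairs, with both knockout libraries on the same side of both controls, but the calls were made from these same 4 libraries, so this describes the calls and is no separate check of them. The median absolute difference on the log2(FPKM + 1) scale was 0.106 between the guides and 0.0668 between the control replicates. The guides differed by at least 2-fold in 15 genes, of which PMCH and SNURF were called. PMCH, the precursor of melanin-concentrating hormone, was at 10.4 and 7.96 FPKM in sgNeg3 and at 0.000306 and 1.58 FPKM with guides 1 and 2. SNURF, which shares its transcripts with a neighbouring gene and is uncertain for that reason, was at 45.3 and 74.9 against 14.9 and 34.1 FPKM, a call lost without either sgNeg3 replicate or guide 1 (adjusted p of 0.0727 to 0.308).

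**Figure D1:**
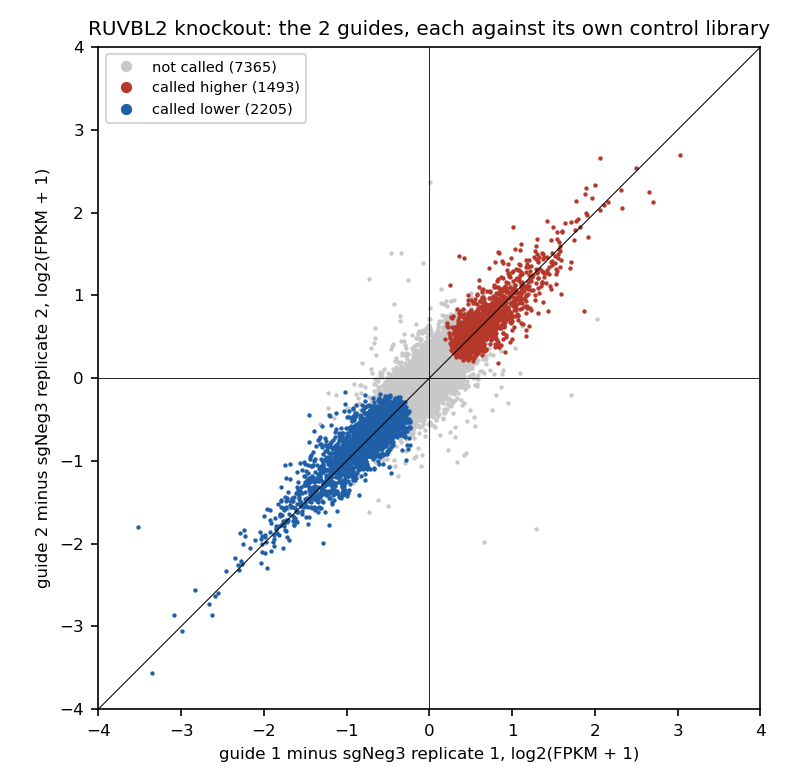
Each point is 1 of 11063 tested genes; the x axis is guide 1 minus sgNeg3 replicate 1 and the y axis guide 2 minus sgNeg3 replicate 2, both as log2(FPKM + 1), with the diagonal marking equality. The 1493 genes called higher (red) and the 2205 called lower (blue) lie at the upper right and lower left, while the grey genes near the centre were not called.

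On the log2(FPKM + 1) scale, the gene with the largest rise was SDCBP2, which encodes syntenin 2. It went from 1.53 and 1.79 FPKM in sgNeg3 to 19.7 and 17.1 FPKM (2.86 ± 0.151). The placental growth factor gene PGF went from 0.701 and 0.811 to 8.58 and 9.5 FPKM (2.51), and ESM1, the proteoglycan endocan, from 0.229 and 0.538 to 6.73 and 6.3 FPKM (2.45). STC2, the secreted stanniocalcin 2, rose from 8.61 and 8.7 to 47 and 45.9 FPKM (2.30), and the stress cytokine GDF15 from 14 and 16.7 to 74.1 and 72.5 FPKM (2.19). The guides lay close together in these genes. That knockout and control values did not overlap was a condition of the list and is no separate result. The transcription factor CHOP, encoded by DDIT3, reached 210 FPKM with both guides from 46.4 and 47.2 FPKM (2.14 ± 0.298), and PPP1R15A, the stress-induced phosphatase subunit GADD34, reached 174 and 170 FPKM from 40.9 FPKM in both controls (2.05). GADD45B (2.05), the cytokine gene IL1B (2.07), the P-selectin ligand gene SELPLG (2.10), OVGP1 (2.17), C4orf22 (2.10) and the histone genes HIST1H4H (2.42) and HIST1H2BO (2.36) complete the 14 largest rises. By limma, the adjusted p was at most 0.00103 in each. HIST1H2BO (0 and 0.257 FPKM), C4orf22 (0.908 and 0.484 FPKM), PGF and ESM1 were below 1 FPKM in both controls. They entered the test only through other libraries and could hardly be called lower. Their fold changes, and the order of the rises, depend on the pseudocount. As plain ratios of mean FPKM, HIST1H2BO (39.5), ESM1 (17.0) and PGF (12.0) lay above SDCBP2 (11.1).

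The gene with the largest fall was KIAA0040, from 26.5 and 27 FPKM to 1.7 and 1.37 FPKM (-3.45 ± 0.181). FLRT2, a membrane protein of cell adhesion, fell from 40 and 41.4 to 4.16 and 4.1 FPKM (-3.02), and the immediate early transcription factor gene EGR1 from 40.5 and 41.3 to 3.88 and 4.84 FPKM (-2.97). DEPTOR, an inhibitor of mTOR, fell from 8.97 and 9.61 to 0.611 and 0.463 FPKM (-2.74). The guides were close in each of these 4 genes. Knockout and control values lay apart by the choice of the list, as for the rises. The list goes on with the collagen gene COL23A1 (-2.70), the transcriptional adaptor LMO2 (-2.70), PMCH (-2.66), the carbonic anhydrase CA12 (-2.61), the matrix protein SNED1 (-2.57) and OLFML2B (-2.29). LMNB1, which encodes lamin B1 of the nuclear lamina, fell from 38.6 and 37.5 to 6.2 and 6.64 FPKM (-2.40). SCD, the desaturase that makes oleic acid, fell from 560 and 547 to 113 and 109 FPKM (-2.31). SERPINF1 (-2.26), a secreted inhibitor of vessel growth, and the synaptic scaffold HOMER2 (-2.25) close the 14 largest falls, all with adjusted p-values of 0.00156 or lower by limma.

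**Figure D2:**
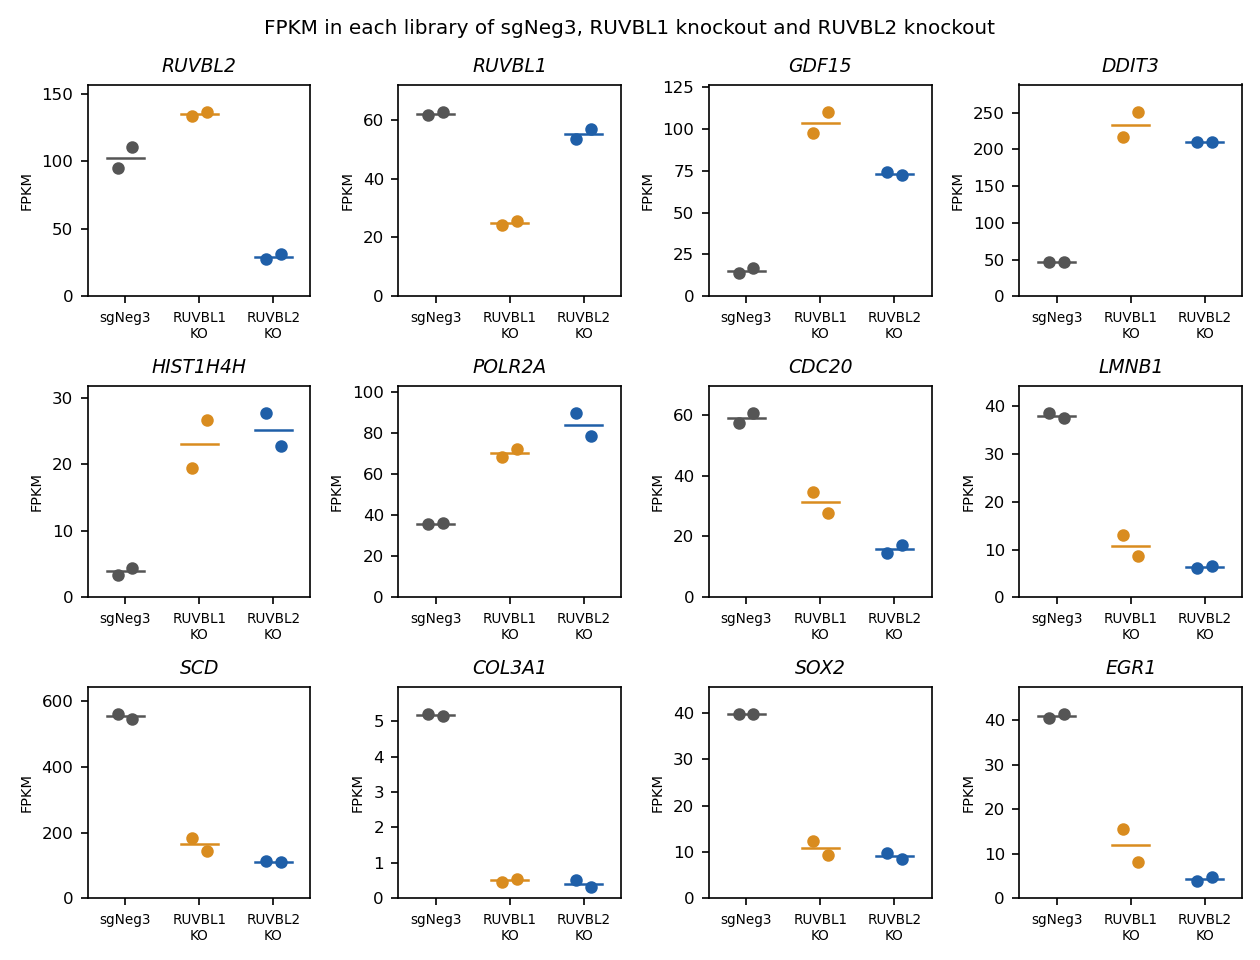
FPKM (linear axes from 0) of 12 genes in each of the 2 libraries (points) of sgNeg3, RUVBL1 knockout and RUVBL2 knockout, with the group mean as a bar. RUVBL2 knockout lies apart from sgNeg3 in every panel except that of RUVBL1, where the libraries are close (53.4 and 57 against 61.5 and 62.6 FPKM).

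Genes of mitosis fell as a block. All 40 tested genes of the G2/M and mitosis list were lower in RUVBL2 knockout and 0 were higher, with a median of -1.39 and a range of -1.99 to -0.68, where 19.9% of all tested genes were lower and the median was -0.05. The kinesin KIF20A of cytokinesis fell from 27.1 and 25 to 5.85 and 5.76 FPKM (-1.99 ± 0.133), and CCNB1, cyclin B1 of the mitotic kinase, from 64.4 and 66.5 to 17.6 and 18.6 FPKM (-1.80 ± 0.164). The spindle motor KIF2C (-1.52), CDCA8 of the chromosomal passenger complex (-1.49) and the spindle checkpoint kinase BUB1B (-1.60) fell as well. In bulk RNA, fewer cells in a phase of the cycle and less RNA per cell cannot be told apart.

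Many G2/M genes share short promoter elements, the cell cycle genes homology region (CHR), to which the cell cycle complexes DREAM and MMB bind, and CCAAT boxes bound by NF-Y. In RefSeq promoters of build GRCh38.p14 (250 bases before to 50 after the start), a CHR was searched as TTTGAA or TTTAAA and a CCAAT box as CCAAT, on both strands. A promoter was matched for 34 of the 40 genes and for 8708 of the 11063 tested genes. A CHR was found in 29 of the 34 promoters (85.3%), in 15.3% of those of all tested genes and in 24.3% of all 27305 promoters in the table. A CCAAT box was found in 25 of the 34 (73.5%), against 37.2% and 35.7%, and both motifs in 22 (64.7%), against 6.33% and 9.49%. A match is a description of the letters, not of a bound site. Below are 100 bases upstream of 4 mitotic genes that lay outside annotated exons, with CHR and CCAAT matches of either strand in capitals, shown 5′ to 3′ on the strand of the gene. They are the 4 genes with the smallest adjusted p whose window of that kind held both motifs, and were chosen after the values were seen.
PLK1 (chr16:23678722-23678821, plus strand): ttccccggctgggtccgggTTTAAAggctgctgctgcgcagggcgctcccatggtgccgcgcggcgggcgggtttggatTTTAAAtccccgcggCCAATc
KIF11 (chr10:92593030-92593129, plus strand): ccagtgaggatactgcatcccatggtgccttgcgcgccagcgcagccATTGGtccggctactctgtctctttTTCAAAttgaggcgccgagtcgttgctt
CDC20 (chr1:43358855-43358954, plus strand): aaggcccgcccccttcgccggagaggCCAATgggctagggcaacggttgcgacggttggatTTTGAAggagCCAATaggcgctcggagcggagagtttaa
KIF4A (chrX:70289990-70290089, plus strand): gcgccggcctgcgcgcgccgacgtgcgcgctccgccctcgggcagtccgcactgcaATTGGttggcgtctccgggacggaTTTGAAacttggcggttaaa

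The 4 genes fell in both libraries. PLK1, the polo-like kinase of mitotic entry, went from 24.3 and 26.3 to 6.61 and 8.21 FPKM (-1.65). The spindle motor gene KIF11 went from 18.4 and 17.9 to 4.32 and 4.84 FPKM (-1.78), and the chromokinesin gene KIF4A from 10.1 and 8.82 to 3.72 and 3.55 FPKM (-1.17). CDC20, the activator of the anaphase-promoting complex, went from 57.1 and 60.5 to 14.5 and 17.2 FPKM (-1.83).

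Genes of DNA replication and repair were lower in part. Of 43 tested genes of G1/S and replication, 23 fell (53.5%, beside 19.9% of all tested genes) and 0 rose, with a median of -0.50, and a CHR was found in 4 of 38 matched promoters (10.5%). Cyclin A2 (CCNA2) fell from 17.2 and 16.7 to 5.24 and 5.06 FPKM (-1.55 ± 0.139), the primase subunit PRIM1 from 6.88 and 8.75 to 2.4 and 2.78 FPKM (-1.29) and the ribonucleotide reductase subunit RRM2 from 28.5 and 29.5 to 11.1 and 13.5 FPKM (-1.18). The polymerase subunit POLD1 (-1.09) and GINS1 of the replicative helicase (-0.84) followed. Of 24 tested genes of homologous recombination and the Fanconi pathway, 13 fell and 0 rose (median -0.48), with FANCD2 from 3.75 and 3.83 to 1.26 and 1.42 FPKM (-1.03) and its partner FANCI from 10.1 and 10.2 to 4.76 and 5.2 FPKM (-0.90).

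Histone genes moved in opposite directions by class. Of 67 genes of the HIST1 to HIST4 clusters, which encode the histones made during DNA replication, 29 could be tested, and 17 rose and 0 fell (median 0.88). The share that rose was 58.6%, beside 13.5% higher and 19.9% lower over all tested genes. A gene near 0 FPKM in sgNeg3 entered the test only through other libraries and can hardly be called lower. HIST1H2BO, at 0 and 0.257 FPKM in sgNeg3, entered in this way, so the filter favours rises in this count. The list of cluster genes was defined after the data had been seen. HIST1H4H rose from 3.42 and 4.4 to 27.7 and 22.7 FPKM, HIST1H2BC from 2.47 and 3.47 to 8.21 and 9.79 FPKM (1.34), HIST3H2A from 11 and 12 to 27 and 30.9 FPKM (1.26) and the linker histone gene HIST1H1C from 34.8 and 33.5 to 62.7 and 78.1 FPKM (1.01). Most mRNAs of this class end in a stem-loop and not in a poly(A) tail, so a poly(A)-selected library holds only a part of them, and their copies are similar enough to make single values uncertain. By contrast, 4 of the 5 tested genes of H2A variants, which are made throughout the cycle, fell (80%, median -0.77), beside 19.9% of all tested genes. The macroH2A gene H2AFY2 fell from 13.7 and 13.2 to 4.9 and 5.36 FPKM (-1.24 ± 0.108) and H2AFV, an H2A.Z gene, from 63.3 and 65.2 to 33.3 and 33.5 FPKM (-0.92 ± 0.146). H2AFZ, the other H2A.Z gene and a substrate of the complexes that hold RUVBL2, went from 352 and 360 to 196 and 220 FPKM (-0.77 ± 0.235, adjusted p = 0.0324), a call that was lost without any 1 of the 4 libraries (adjusted p of 0.0984 to 0.170). H2AFY (-0.50) lost its call in the same way (0.0718 to 0.123).

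Target genes of p53 were higher in large part. Over the 3 lists of p53 targets, 30 of 52 tested genes rose and 5 fell (median 0.60), beside 13.5% and 19.9% of all tested genes. Among the risers, GLS2 and ACER2 were below 1 FPKM in both sgNeg3 libraries. They entered the test only through knockout libraries and could hardly be called lower. Of 18 genes of cell cycle arrest and feedback, 11 rose and 3 fell (median 0.66). MDM2, the ubiquitin ligase of p53, rose from 24.7 and 22.1 to 51.6 and 49.6 FPKM (1.08), the antiproliferative gene BTG2 from 5.48 and 5.63 to 15.6 and 13.7 FPKM (1.25), CYFIP2 from 8.52 and 8.33 to 23.3 and 21.9 FPKM (1.32) and the polo-like kinase PLK3 from 8.89 and 8.07 to 23.8 and 24 FPKM (1.39). Another kinase of that family, PLK2, fell from 142 and 145 to 63.2 and 66.9 FPKM (-1.13). Of 15 genes of cell death, 7 rose and 0 fell (median 0.33). The death receptors FAS (13.1 and 14.4 to 29.4 and 27.9 FPKM, 1.01), TNFRSF10B (0.80) and EDA2R (1.10) and the death-domain adaptor PIDD1 (7.94 and 8.52 to 23 and 25.3 FPKM, 1.44) were among them. The effector genes BAX (-0.06, adjusted p = 0.86), BBC3, which encodes PUMA (-0.16, adjusted p = 0.52), and APAF1 (-0.26, adjusted p = 0.10) did not pass. Of 19 metabolic and repair targets, 12 rose and 2 fell (median 0.60). The repair factor XPC rose from 23.4 and 23.6 to 44.2 and 39.4 FPKM (0.80) and TIGAR, which lowers glycolytic flux, from 7.55 and 6.85 to 11.5 and 11 FPKM (0.58).

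The same genes were read in the p53 induction libraries, which share no library with the knockout and were normalized apart, so that only differences and not levels are set side by side. Induced p53 raised 37.6% and lowered 46.7% of 12203 tested genes. Of 51 list members tested in both, 25 were higher in both contrasts, 2 (CCNG2 and PANK1) were lower in the knockout and higher with p53 (PANK1 not without either sgNeg3 replicate or guide 1, adjusted p of 0.0627 to 0.0855), 13 were higher with p53 alone and 4 were higher in the knockout alone. BTG2 stood at 2.11 with p53 and 1.25 in the knockout, MDM2 at 2.36 and 1.08, and PIDD1 at 3.41 and 1.44. GLS2, a glutaminase, stood at 5.0 with p53 and at 1.02 in the knockout, where it went from 0.139 and 0.222 to 1.44 and 1.36 FPKM. APAF1 stood at 3.18 with p53 against -0.26 in the knockout, and TP53I3 at 2.29 against -0.11. In the opposite sense GDF15 rose by 2.19 in the knockout and stood at -0.06 with p53, and GADD45A rose by 1.17 in the knockout and was lower with p53 (-0.27). Over the 10755 genes tested in both, 657 genes were higher in both, which is 45.7% of the knockout's higher genes and 19.2% of those of p53, where p53 raised 31.8% of these genes. Another 1168 were lower in both, 55.2% of the knockout's lower genes and 21.3% of those of p53, where p53 lowered 51.1%. In opposite directions, 505 genes were higher in the knockout and lower with p53 (35.1% of the knockout's higher genes), and 644 were lower in the knockout and higher with p53 (30.4% of its lower genes).

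**Figure D3:**
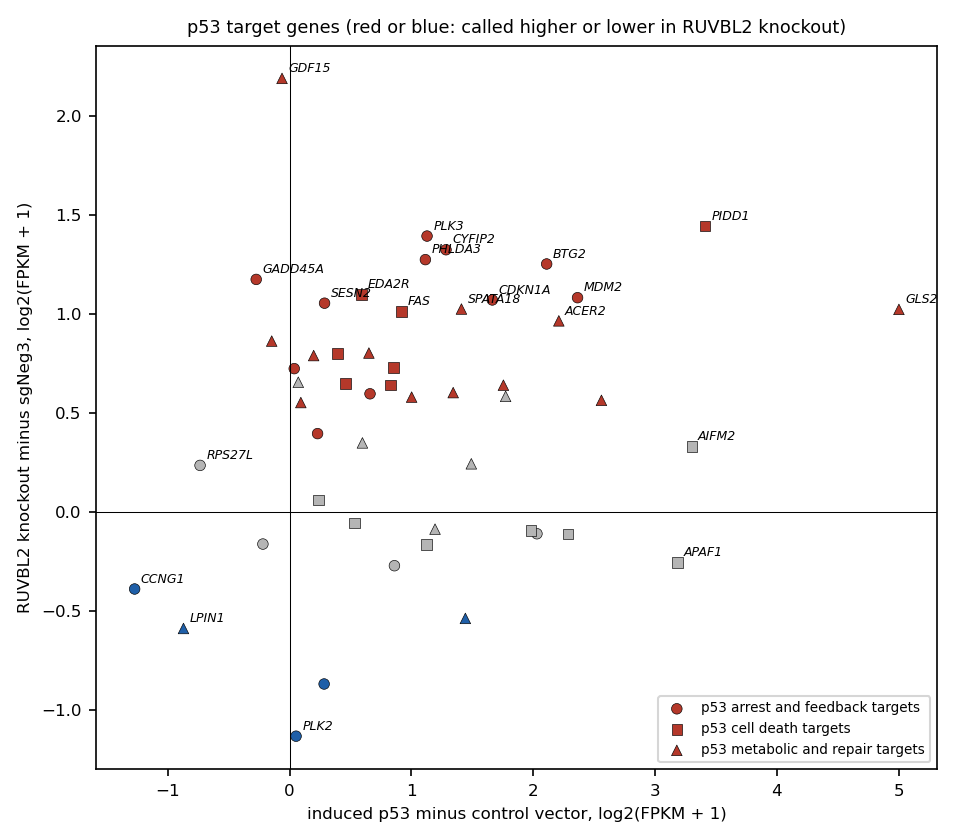
Each point is 1 of 51 p53 target genes; the x axis is induced p53 minus control vector and the y axis RUVBL2 knockout minus sgNeg3, both on the log2(FPKM + 1) scale, with the marker giving the list and the colour the call in RUVBL2 knockout. Most red points lie to the right of 0, GDF15 and GADD45A lie high near or left of 0, and APAF1 lies far to the right near the horizontal line.

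Stress genes regulated by ATF4, the transcription factor of the integrated stress response, were read next. Of 32 tested genes, 7 rose and 5 fell (21.9% and 15.6%, median 0.13), beside 13.5% and 19.9% of all tested genes. The 7 that rose were STC2, DDIT3, the transcription factors ATF3 (6.57 and 5.83 to 27.1 and 26.1 FPKM, 1.94) and CEBPB (13.9 and 13.8 to 35.4 and 36.1 FPKM, 1.31), SESN2 (13.9 and 12.8 to 29.6 and 28 FPKM, 1.05), CHAC1 (0.66) and the transporter chain SLC3A2 (0.84). SESN2 stands on a p53 list as well. The 5 that fell were PHGDH (-0.98) and PSPH (-0.41) of serine synthesis, asparagine synthetase ASNS (-0.57), the alanyl-tRNA synthetase gene AARS (-0.68) and DDIT4 (-0.83), which encodes an inhibitor of mTOR. The calls of CHAC1, SLC3A2, PSPH and ASNS were each lost without any 1 of the 4 libraries (adjusted p of 0.0535 to 0.180 over the 4 genes). ATF4 itself stood at 0.30 (adjusted p = 0.28). The ATF4 element, searched as TGATGNAA on both strands, was found in 5 of 20 matched promoters of the list (25%) and in 1.61% of those of all tested genes. Of 21 genes of the endoplasmic reticulum response, 3 rose and 5 fell (median -0.08). The chaperone HSP90B1 fell from 378 and 374 to 172 and 189 FPKM (-1.06) and the disulfide isomerases PDIA4 (-0.70) and PDIA6 (-0.71) fell too, while SYVN1, a ligase of protein degradation at this membrane, rose from 13.3 and 14.1 to 24.9 and 23.9 FPKM (0.79).

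Lysosome and autophagy genes were called in both directions. Of 41 tested lysosome genes, 14 rose and 5 fell (34.1% and 12.2%, median 0.17), beside 13.5% and 19.9% of all tested genes. The list was then divided after its values had been seen. Of its 12 vacuolar ATPase genes, 10 rose and 0 fell (median 0.68), and of the other 29 genes, 4 rose and 5 fell (median -0.15). ATP6V0A1 rose from 11.2 and 11.3 to 20.3 and 20 FPKM (0.79 ± 0.0933), ATP6V1C1 from 12.4 and 12.9 to 20.5 and 20 FPKM (0.64) and MCOLN1, the lysosomal calcium channel, from 5.16 and 5.31 to 8.6 and 9.7 FPKM (0.70). The acid lipase LIPA fell from 31.4 and 29.6 to 14.2 and 15.7 FPKM (-0.98) and the galactosidase GLA from 27.5 and 26.3 to 14.1 and 16.7 FPKM (-0.77). Of 23 autophagy genes, 9 rose, 1 fell and 13 were not called (median 0.40), with GABARAPL1 of the autophagosome membrane from 18.2 and 16.3 to 34.9 and 35.4 FPKM (0.98), WIPI2 from 15.7 and 14.2 to 24.9 and 26.4 FPKM (0.74) and ATG13 from 13.4 and 11.8 to 19.7 and 19.5 FPKM (0.60).

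Of 32 tested genes of cholesterol and fatty acid synthesis, 17 fell, 0 rose and 15 were not called (median -0.48). The share that fell was 53.1%, beside 19.9% of all tested genes. SREBF1, whose product is a master transcription factor of this pathway, fell from 50.7 and 55 to 16.8 and 16.9 FPKM (-1.59 ± 0.116), the fatty acid desaturase gene FADS2 from 307 and 301 to 103 and 104 FPKM (-1.54), the sterol sensor partner INSIG1 from 24.4 and 25.2 to 7.64 and 8.27 FPKM (-1.53) and lanosterol synthase (LSS) from 71.3 and 70.9 to 31.7 and 32.9 FPKM (-1.11).

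Genes of the extracellular matrix were called lower more often than higher in the 3 lists read. Of 19 tested collagen genes, 14 fell (73.7%, beside 19.9% of all tested genes) and 0 rose (median -1.01), including COL3A1 (5.2 and 5.15 to 0.513 and 0.309 FPKM, -2.13), COL1A2 (134 and 140 to 52.1 and 49 FPKM, -1.42), COL18A1 (-1.50) and COL6A1 (369 and 376 to 148 and 160 FPKM, -1.27). Of 23 laminins and matricellular proteins, 10 fell and 1 rose (median -0.38), with the collagen-binding protein SPARC from 434 and 420 to 160 and 167 FPKM (-1.38) and the nidogens NID1 (-1.76) and NID2 (-1.66) of the basement membrane among those that fell. Of 13 matrix metalloproteinases and relatives, 5 fell, including MMP2 (-0.90), its activator MMP14 (66.1 and 64.3 to 30.4 and 30.8 FPKM, -1.07) and the procollagen peptidase ADAMTS14 (-1.42), and 2 rose, among them ADAMTS5 (0.71).

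Of 14 tested genes of neural progenitor and glioma identity, 8 fell (57.1%, beside 19.9% of all tested genes), 0 rose and 6 were not called (median -0.88). The stem cell factor SOX2 fell from 39.7 FPKM in both controls to 9.77 and 8.57 FPKM (-2.00 ± 0.14), SOX4 from 42.8 and 40.1 to 19.6 and 18.1 FPKM (-1.10) and SOX11 from 3.65 and 3.52 to 1.16 and 1.02 FPKM (-1.13). The Notch targets HEY1 (-1.51) and HES1 (-1.48) fell as well. Among the markers of the line, OLIG2 was at 0 in 3 of the 4 libraries and GFAP and NES were below 1 FPKM in all 4, so these defining glioma markers were at or near 0 in control and knockout alike. VIM, CD44 and EGFR were expressed. VIM went from 6220 and 6378 to 3274 and 3492 FPKM, CD44 from 322 and 326 to 335 and 350 FPKM, and EGFR from 10.7 and 12.4 to 13.1 and 9.86 FPKM. The sum over 7 glioma markers, mostly VIM, was 6593 to 6757 FPKM in sgNeg3 and 3632 to 3860 FPKM in the knockout. Markers of immune and vascular cells summed to 0.828 to 0.905 FPKM over 10 genes in sgNeg3 and 1.69 to 1.82 FPKM in the knockout, with CD3E, AIF1 and CDH5 at 0 in all 4. Most of that rise was CD14 (0.172 and 0.101 to 1.03 and 1.13 FPKM, 0.87). Markers of neurons and oligodendrocytes summed to 84.2 to 84.7 and 102 to 107 FPKM, mostly SYT1, with MOG and MAG at 0 in all 4. The SYT1 call (0.45) was lost without any 1 of the 4 libraries (adjusted p of 0.0934 to 0.157 by limma). GAD1 rose (0.85), a call that was not kept in every fit with a library left out. STMN2 fell from 7.29 and 8.18 to 2.02 and 1.87 FPKM (-1.57), and SNAP25 stood at 7.96 and 6.41 against 5.58 and 5.33 FPKM.

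**Figure D4:**
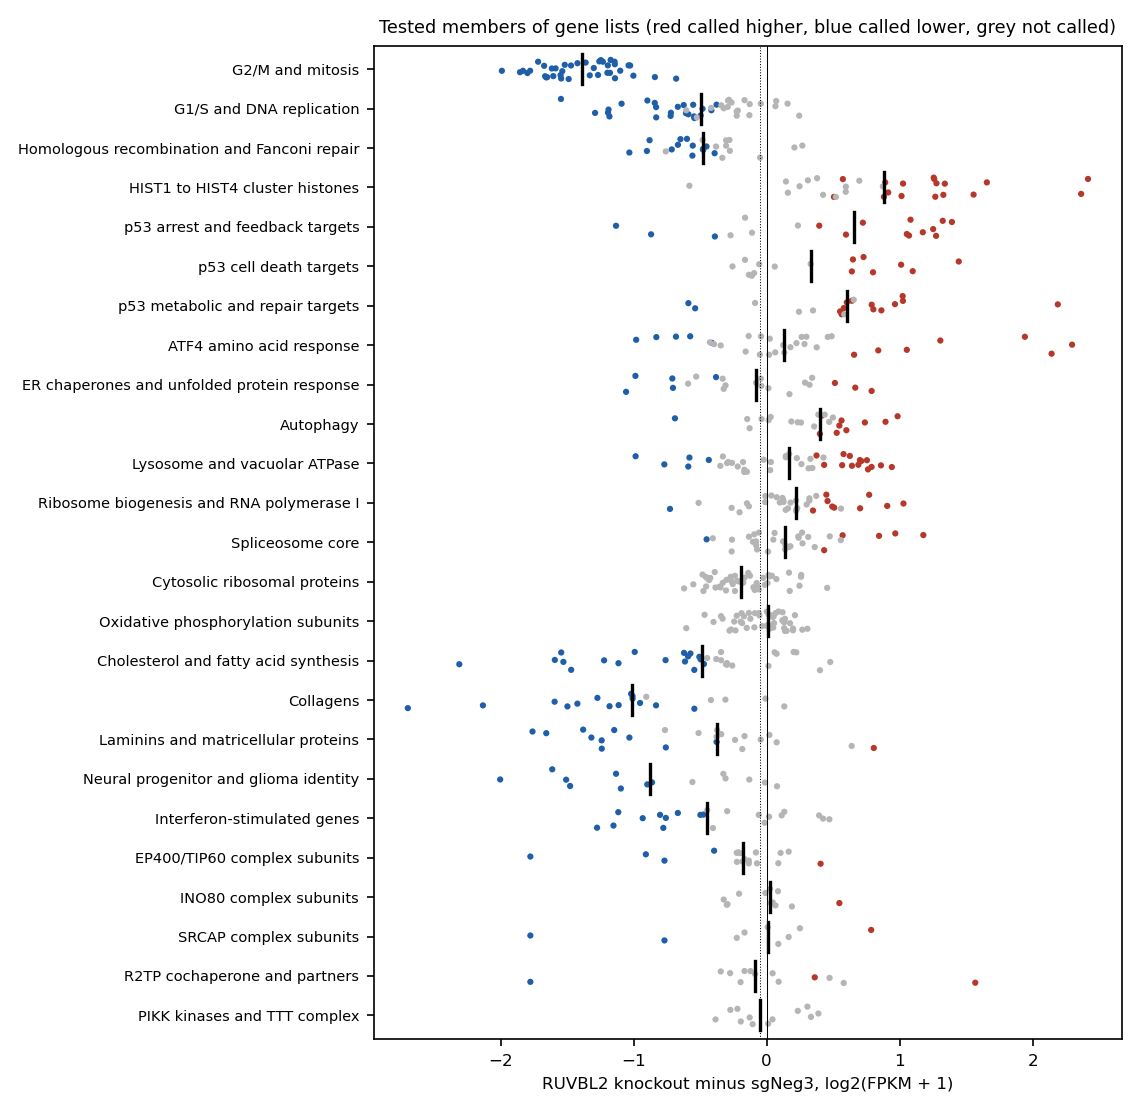
Each point is a tested member of the list on its row, placed at its difference between RUVBL2 knockout and sgNeg3 on the log2(FPKM + 1) scale (red called higher, blue called lower, grey not called), with the list's median as a black bar and the median of all genes as a dotted line. The G2/M row lies wholly below 0 with 40 blue points, the rows of cytosolic ribosomal proteins and oxidative phosphorylation hold grey points only, and the histone row lies mostly above 0.

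The subunit genes of the complexes built with RUVBL2 were read at the RNA level. Of 18 EP400/TIP60 subunit genes, 4 were lower and 1 was higher (22.2% and 5.56%), beside 19.9% and 13.5% of all tested genes. The 4 lower genes include the targeted RUVBL2, whose fall was set by the design, so the lower share is inflated by it. The other called genes were the PHD finger subunit ING3 (8.58 and 7.05 to 3.77 and 3.6 FPKM, -0.91 ± 0.132), YEATS4, which encodes the acetyl-lysine reader GAS41 (7.28 and 7.37 to 3.35 and 4.49 FPKM, -0.77 ± 0.163), EPC1 (-0.39) and MEAF6 (0.41). The ING3 call held without any 1 library. That of YEATS4 was lost without sgNeg3 replicate 2 or guide 1 (adjusted p of 0.0519 to 0.0687), and those of EPC1 (0.0551 to 0.125) and MEAF6 (0.116 to 0.188) without any 1 of the 4 libraries. The acetyltransferase KAT5 (-0.22, adjusted p = 0.263), the ATPase EP400 (-0.18, adjusted p = 0.61), TRRAP (-0.19, adjusted p = 0.667) and BRD8 (-0.08, adjusted p = 0.585) did not pass. The INO80 list, unlike the EP400/TIP60 and SRCAP lists, left out RUVBL1 and RUVBL2. Of its 12 genes, ACTR5 alone was called (4.12 and 4.27 to 6.17 and 7.03 FPKM, 0.55). That call was lost without either sgNeg3 replicate or guide 2 (0.0581 to 0.0828). Of 9 SRCAP subunit genes, RUVBL2 and YEATS4 were lower and ZNHIT1 was higher (52.6 and 44.8 to 78.7 and 90.4 FPKM, 0.79), the last not without sgNeg3 replicate 2 or guide 2 (0.0808 to 0.0904). The share called was 33.3% in the SRCAP list with the targeted RUVBL2 counted, beside 33.4% of all tested genes.

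The clients and partners of the R2TP pathway were read next. Their shares stand beside 13.5% of all tested genes higher and 19.9% lower. The higher shares of the R2TP, polymerase and spliceosome lists lay near that of all tested genes. Of 13 genes of R2TP and its partners, 2 rose (15.4%) and 1 fell, the targeted RUVBL2. The prefoldin-like subunit PDRG1 rose from 24.1 and 22.6 to 68.6 and 73.8 FPKM (1.57 ± 0.165, adjusted p = 0.000279). RPAP3, the HSP90 adaptor, stood at 0.36 (adjusted p = 0.025), a call lost without any 1 library (0.0830 to 0.162). POLR2A, the largest subunit of RNA polymerase II, rose from 35.4 and 36.2 to 89.6 and 78.3 FPKM (1.2 ± 0.229, adjusted p = 0.00443). It was 1 of 2 called among 16 genes of that enzyme and its assembly (12.5%). The other was POLR2C (0.56), a call lost without either sgNeg3 replicate or guide 1 (adjusted p of 0.0637 to 0.0700). Among 32 core spliceosome genes 5 rose and 1 fell (15.6% and 3.13%). The U4/U6 snRNP proteins PRPF3 (17 and 17.8 to 40.2 and 41.2 FPKM, 1.18) and PRPF4 (0.57), and PRPF6 (46.2 and 46.9 to 91 and 92.9 FPKM, 0.97) and the helicase DDX23 (38.1 and 41.3 to 72.6 and 71.6 FPKM, 0.85), which join it in the tri-snRNP, were among the risers. Of 13 genes of small nucleolar RNP assembly, 4 rose and 1 fell (30.8% and 7.69%). The methyltransferase gene FBL, which fell (-0.79), and the risers NOP58 (0.53), ZNHIT3 (0.67) and ZNHIT6 (0.34) each lost the call without any 1 library (adjusted p of 0.0845 to 0.243 over the 4 genes). Of 35 genes of ribosome biogenesis, 9 rose and 1 fell (25.7% and 2.86%, median 0.22). The risers were led by RRN3, an initiation factor of RNA polymerase I (10.9 and 12.9 to 26.6 and 24.1 FPKM, 1.03), and RRP12 (8.38 and 8.84 to 17.1 and 16.9 FPKM, 0.91).

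Among 4 further lists no gene was called, which does not show that their levels were unchanged. Uncalled differences ranged from -0.62 to 0.46 in cytosolic ribosomal proteins and from -0.60 to 0.31 in oxidative phosphorylation subunits. By limma, 0 genes were called among 12 PIKK kinases and TTT cochaperones (median -0.05), 8 subunits of the chaperonin CCT (-0.05), 46 cytosolic ribosomal proteins (-0.19) and 50 subunits of oxidative phosphorylation (0.01). At an unadjusted p under 0.05 these lists held 1, 1, 3 and 3 genes, in that order, beside 44.2% of all tested genes. Of 47 mitochondrial ribosomal proteins 3 rose (6.38%, beside 13.5% of all tested genes) and 0 fell. The 3 were MRPL20 (86.8 and 83.2 to 141 and 174 FPKM, 0.87), MRPS10 (0.47) and MRPS2 (0.46). Each of these calls was lost without any 1 library (adjusted p of 0.0605 to 0.261 over the 3 genes). Of 31 proteasome subunits 2 rose (6.45%), PSMD2 (106 and 109 to 192 FPKM with both guides, 0.83) and PSMD12 (0.45), the latter not without any 1 library (adjusted p of 0.0670 to 0.139).

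RUVBL1 knockout was compared with RUVBL2 knockout directly, in the same fit. Of 11063 genes 1 was called (0.00904%), RUVBL2 itself (-2.17 ± 0.216, adjusted p = 0.0363). At an unadjusted p under 0.05 there were 594 genes, 141 higher and 453 lower in RUVBL2 knockout, and 90% of all genes differed by -0.35 to 0.23. RUVBL1 mRNA, at 24.2 and 25.6 FPKM in its own knockout and 53.4 and 57 FPKM in RUVBL2 knockout, had a difference of 1.12 ± 0.163 that did not pass (adjusted p = 0.356). The next gene by p was STC1, a secreted glycoprotein related to STC2, at 18 and 19.4 FPKM in RUVBL1 knockout and 40.1 and 33.4 FPKM in RUVBL2 knockout (0.93 ± 0.141, adjusted p = 0.356), against 13.1 and 13 FPKM in sgNeg3. EGR1 stood at 15.5 and 8.22 FPKM in RUVBL1 knockout against 3.88 and 4.84 FPKM (-1.21 ± 0.311, adjusted p = 0.646). The count of 1 depended on which libraries gave the spread: it was 0 without either library of either knockout, 131 when these 4 libraries alone were fitted, and 336 (304 lower, 32 higher) when sgNeg3 was added to them. With the replicate number as a block it was 2, RUVBL2 (adjusted p = 0.00118) and RUVBL1 (adjusted p = 0.0485), by limma.

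Some lists differed between the 2 knockouts by small amounts in 1 direction. In all 40 G2/M genes the RUVBL2 value was below that of RUVBL1, with a median difference of -0.37. In 35 of them (87.5%) both RUVBL2 libraries lay below both RUVBL1 libraries, where 29.8% of all tested genes did, and 20 (50%) had an unadjusted p under 0.05, where 4.09% of all genes did in that direction. The same 40 genes had medians against sgNeg3 of -1.39 in RUVBL2 and -0.99 in RUVBL1 knockout, which share their controls. CDC20, for example, was at 34.7 and 27.8 FPKM in RUVBL1 knockout and 14.5 and 17.2 FPKM in RUVBL2 knockout (-0.93 ± 0.197, adjusted p = 0.646). All 46 cytosolic ribosomal protein genes were also below RUVBL1 (median -0.35), and 4 of them (8.70%) had an unadjusted p under 0.05. So were 28 of 32 ATF4 genes (median -0.19) and 30 of 32 genes of cholesterol and fatty acid synthesis (-0.18). In each of these 2 lists 21.9% had an unadjusted p under 0.05 in that direction. Below RUVBL1 were also 46 of 50 oxidative phosphorylation genes (median -0.17) and 23 of 24 HOX genes (median -0.15). Of these, 0 and 2 had an unadjusted p under 0.05 in that direction. The sign of the shift was thus not particular to mitosis, but its size in G2/M (median -0.37) was larger than in these 2 lists. Over all tested genes 6381 (57.7%) were below RUVBL1, with a median difference of -0.03. That median became -0.0004 when the libraries were rescaled by a trimmed mean. In the other direction, 25 of 29 genes of the HIST1 to HIST4 clusters (median 0.26) and 16 of 19 metabolic and repair targets of p53 (median 0.18) were above it. Against sgNeg3, the targeted mRNA stood at -1.28 ± 0.163 for RUVBL1 in its own knockout and at -1.78 ± 0.216 for RUVBL2 in its own. The timing of the loss may differ between the knockouts. The part of the remaining level and of the timing in these differences was not tested.

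**Figure D5:**
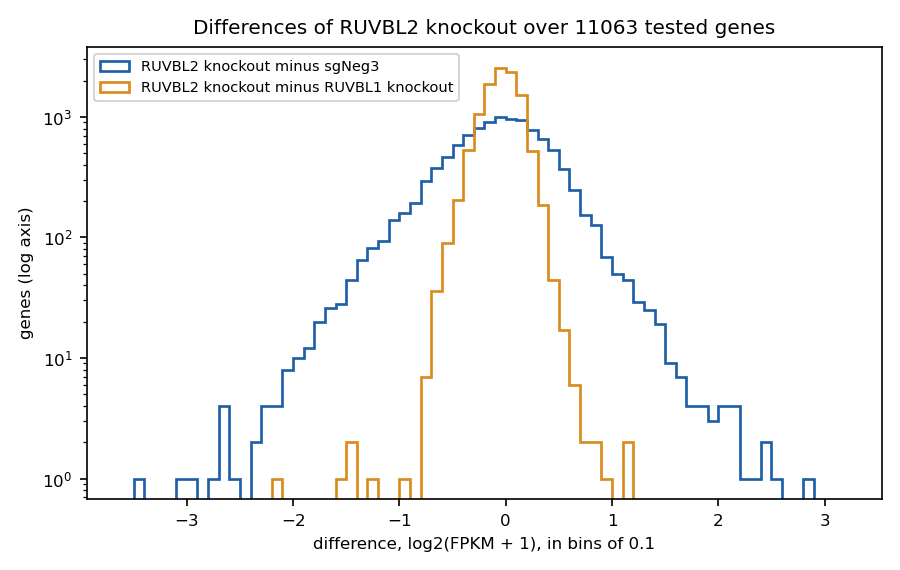
Histogram of 11063 genes (log axis) by their difference in log2(FPKM + 1), in bins of 0.1, for RUVBL2 knockout minus sgNeg3 (blue) and RUVBL2 minus RUVBL1 knockout (orange). The orange curve is narrower, with 90% of genes between -0.35 and 0.23, and its lowest bin holds RUVBL2 at -2.17.

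TIP60 is the acetyltransferase of the EP400/TIP60 complex, and its knockout has other controls, so the 2 contrasts share no library. TIP60 knockout raised 15.4% and lowered 26.6% of 11382 tested genes. Of the 10948 genes tested in both, 442 were higher in both, which is 30.7% of the RUVBL2 list and 28.9% of the TIP60 list, where TIP60 raised 14% and RUVBL2 13.2% of these genes. Another 1024 were lower in both, 46.9% of the RUVBL2 list and 34.0% of the TIP60 list, where the shares of all these genes were 27.5% and 20%. Opposite calls were fewer. Higher in RUVBL2 and lower in TIP60 knockout were 160 genes, 11.1% of the RUVBL2 higher list, where TIP60 lowered 27.5% of these genes. The reverse held for 199 genes, 9.11% of the RUVBL2 lower list, where TIP60 raised 14%.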

How the data were processed

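Poly(A)-selected RNA of A382 cells was sequenced from strand-specific libraries. The authors deposited FPKM values for 19102 genes in 48 libraries; TopHat2, Cufflinks, Cuffdiff and hg19 are named per the submitters' processing notes, with no role or version. The table falls into 5 blocks scaled apart, and 1 of these holds the 10 libraries used here. The FPKM steps of low genes put 12.6 to 16.6 fragments per kilobase behind 1 FPKM, so precision at low values rests on few fragments. On log2(FPKM + 1), genes with FPKM of at least 1 in 2 libraries were fitted with limma 3.58.1 in R 4.3.3 (1 level per target, 5 residual degrees of freedom, intensity trend, Benjamini-Hochberg over all tested genes), after a check on simulated data. TIP60 and p53 contrasts were fitted in their own blocks, without a duplicated column in the former. Named genes were the targets, the 14 largest rises and falls, up to 5 called members of a list by adjusted p, and complex subunits. The rises and falls were called genes averaging 5 FPKM or more on the higher side. Both of their knockout libraries had to lie on the same side of both controls. STC1, the genes with printed promoters and a few list members were named after their values had been seen. The members and lists were chosen with earlier results of these data known. Of the 10 libraries, MORF4L2 guide 2 stood apart on the second principal component. Alternatives covered pseudocount, filter, scaling (trimmed mean of M values, TMM, or median ratios), trend, replicate block, left-out libraries and the libraries fitted. Guide RNA sequences and proteins were not analysed here.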

Additional observations from a re-analysis of the deposited data

How the results depend on the processing

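RUVBL2 mRNA kept its call and direction under every alternative run (-1.89 to -1.65). The count of 3698 called genes stayed within 1.5 times under pseudocounts of 0.1 and 5, both filters, both rescalings, no trend, the replicate block (4585) and a fit without MORF4L2 guide 2 (5326, chosen after seeing the data). It was 1652 to 1848 with a library left out, 6817 with the 2 groups alone and 6333 with sgNeg3, RUVBL1 and RUVBL2 alone, the last chosen after seeing the data; fewer samples or another spread enter each of these. The direct count of 1 became 7 with no filter, 2 with the replicate block, 0 with a library left out, 131 with the 2 groups alone, 3 without MORF4L2 guide 2 and 336 with the 3 groups. Same-numbered libraries of the knockouts deviated together (correlations of 0.32 to 0.72), and those of sgNeg3 did not deviate with them (-0.08 to -0.02). The labels do not say what the number marks, so the fit without the replicate block is given first. Of 216 called genes that are named or eligible by the naming rule, 56 lost the call without at least 1 library, 23 of them without any of the 4. Of 376 list medians recomputed over 47 lists, 74 moved by more than the spread between replicates. There were 15 changes of sign, over 9 lists whose reported medians lie between -0.09 and 0.11; the CCT, PIKK and oxidative phosphorylation medians are among them. Uncalled subunit genes and BAX changed sign. TFPT went to 0.0356 with median ratios and to 0.0426 with TMM, and to 0.0445 without sgNeg3 replicate 1. INO80B went to -0.0184 without sgNeg3 replicate 1 and INO80E to -0.0200 without replicate 2. With guide 2 alone and with guide 1 alone, the values were 0.0641 and -0.0824 for TFPT, 0.0121 and -0.186 for ECD, -0.0276 and 0.238 for EPC2, -0.0627 and 0.0798 for SRCAP, 0.0893 and -0.331 for UXT, 0.222 and -0.0457 for DMAP1, 0.0917 and -0.0284 for INO80B, 0.104 and -0.0529 for INO80E, and 0.00599 and -0.118 for BAX. The cause of these was not tested. Exact tests of 2 against 2 libraries cannot pass, and the depth of low genes limits their precision.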

Other observations

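The counts in these paragraphs stand beside 13.5% of all tested genes higher and 19.9% lower in RUVBL2 knockout. Of 21 tested interferon-stimulated genes, 10 fell and 0 rose (median -0.45), including IFITM1 (3.12 and 3 to 0.695 and 0.663 FPKM, -1.27), BST2 (6.09 and 5.25 to 1.67 and 2.36 FPKM, -1.15) and IFIT1 (1.39 and 1.37 to 0.282 and 0.216 FPKM, -0.93). Of 13 tested cytokine and chemokine genes, 3 rose and 3 fell: IL1B rose from 13.5 and 12.5 to 55.3 and 59.6 FPKM and CXCL8, the neutrophil chemoattractant, from 10 and 10.4 to 35.9 and 35.2 FPKM (1.71), whereas CXCL12 fell from 16 and 15 to 2.48 and 3.39 FPKM (-2.08). Of 24 tested HOX genes, the body-axis transcription factors, 8 fell and 1 rose (median -0.31), with HOXB9 from 12.3 and 11.8 to 4.66 and 4.92 FPKM (-1.17) and HOXB3 from 72.2 and 68.4 to 35.3 and 33.1 FPKM (-1.02).

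Of 23 tested genes of follistatin, activin and BMP signalling, 2 rose and 8 fell. FST, the secreted activin antagonist follistatin, rose from 35.3 and 32.5 to 122 and 114 FPKM (1.78). INHBE, an activin chain, fell from 5.8 and 5.69 to 0.793 and 1.03 FPKM (-1.82), and the BMP target ID3 from 195 and 185 to 60.9 and 67.3 FPKM (-1.55). Of 19 tested YAP/TEAD targets, 5 rose and 3 fell, with the receptor kinase AXL at 0.64 and TGFB2 at -1.80. The keratin gene KRT8 rose from 13.6 and 12.4 to 41.6 and 44.4 FPKM (1.65), and JUP, the junction protein plakoglobin, fell from 15 and 15.5 to 3.61 and 3.82 FPKM (-1.79). Both tested metallothionein genes were higher, MT2A from 364 and 340 to 1246 and 1504 FPKM (1.96) and MT1X at 1.32, whose call was lost without sgNeg3 replicate 1 or guide 2 (adjusted p of 0.0720 to 0.0777); near-identical copies make both values uncertain. S100A4, a calcium-binding protein of motile cells, fell from 295 and 294 to 62.3 and 77.4 FPKM (-2.07). Of 22 tested heat shock genes 5 rose and 2 fell, with HSPH1 at 0.69 and HSPA1B, which has a near-identical copy, at 0.74.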
